A study of Mus musculus with 2 samples.

Results

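The transcripts described here encode carriers that move organic ions, lipids, bile acids, drugs and peptides across membranes. Members were the array probes named for the Slc22a, Slco, Slc47a, Abca, Abcb, Abcc, Abcd or Abcg families (Abca1, Abcg1, Abcc8 and Abcc9 were left out by the rule), selected on their signal, well above background in at least 1 aortic region on both arrays. The array carried 124 such probes for 75 genes, of which 83 probes for 55 genes were kept, among 21369 genes measured in all. That detection step chose the members, so the presence of signal in them is not a result. No probe was named Slc47a.

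The series compared RNA of 2 parts of the aortic wall of C57Bl/6 wild-type mice aged 16 weeks. The atherosclerosis-prone arch was taken with the root and the proximal 2 mm of the thoracic segment. The atherosclerosis-resistant central thoracic aorta was a segment of 6 mm length further on. The mice carried no named allele and had no named treatment, and in both groups the lumen had been perfused with Triton X-100 to strip the endothelium. For each region the RNA of 6 mice, 3 of them male and 3 female, made 1 pool, and both pools went onto 2 two-colour Agilent arrays with the dyes swapped: array 1 had the arch in Cy5, array 2 in Cy3. Since both arrays read the same 2 pools, they make 1 replicate, no test is possible, and the animals' own spread is not in any value. Ratios are log2 values of arch over thoracic aorta, the mean of both arrays, and ± gives how far each array lay from that mean, which is technical error only. A gene is called higher or lower when both arrays show a difference of 1.5-fold or more in that direction. In such bulk pools, fewer cells of a type and less RNA per cell cannot be told apart.

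Carriers of these families set which small molecules enter and leave cells. The Slc22a family holds organic cation, organic anion and carnitine carriers, and the Slco family holds organic anion transporting polypeptides that take up prostaglandins, steroid conjugates and bile acids. ABC proteins use ATP. Abca members mostly handle lipids, Abcb and Abcc members include the multidrug exporters, Abcd members mostly serve peroxisomes, and Abcg members export sterols and drugs. Most of these carriers are best known from liver, kidney and gut, while some, such as the prostaglandin carrier Slco2a1, are known from the vessel wall.

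Most of the transporters were near equal in both regions. Slc22a2 (OCT2), an organic cation carrier, was 1.59-fold higher in the thoracic pool, and no member was called higher in the arch. Of the 55 members 2 were called lower in the arch, or 3.64%, beside 0.229% of all 21369 genes. Members called higher in the arch numbered 0, beside 0.257% of all genes. With a background offset of 0 the same 2 members were called, beside 0.482% of all genes lower and 0.543% higher, and with the scanner software's ratios again the same 2, beside 0.599% and 0.711%. The members were proposed with earlier results of these data known, so these shares are a description. The median ratio of the members was −0.0082, against 0.0023 over all genes, and 51 of 55 (92.7%) lay within 0.2 of 0, against 93.1% of all genes. Above 0 lay 25 members (45.5%), against 51.5% of all genes. Where arrays were centred on the median in place of loess, 13 of 55 members and 7344 of 21369 genes lay above 0. Members with the same sign on both arrays numbered 35 of 55 (63.6%), against 54.8% of all genes.

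**Figure D1:**
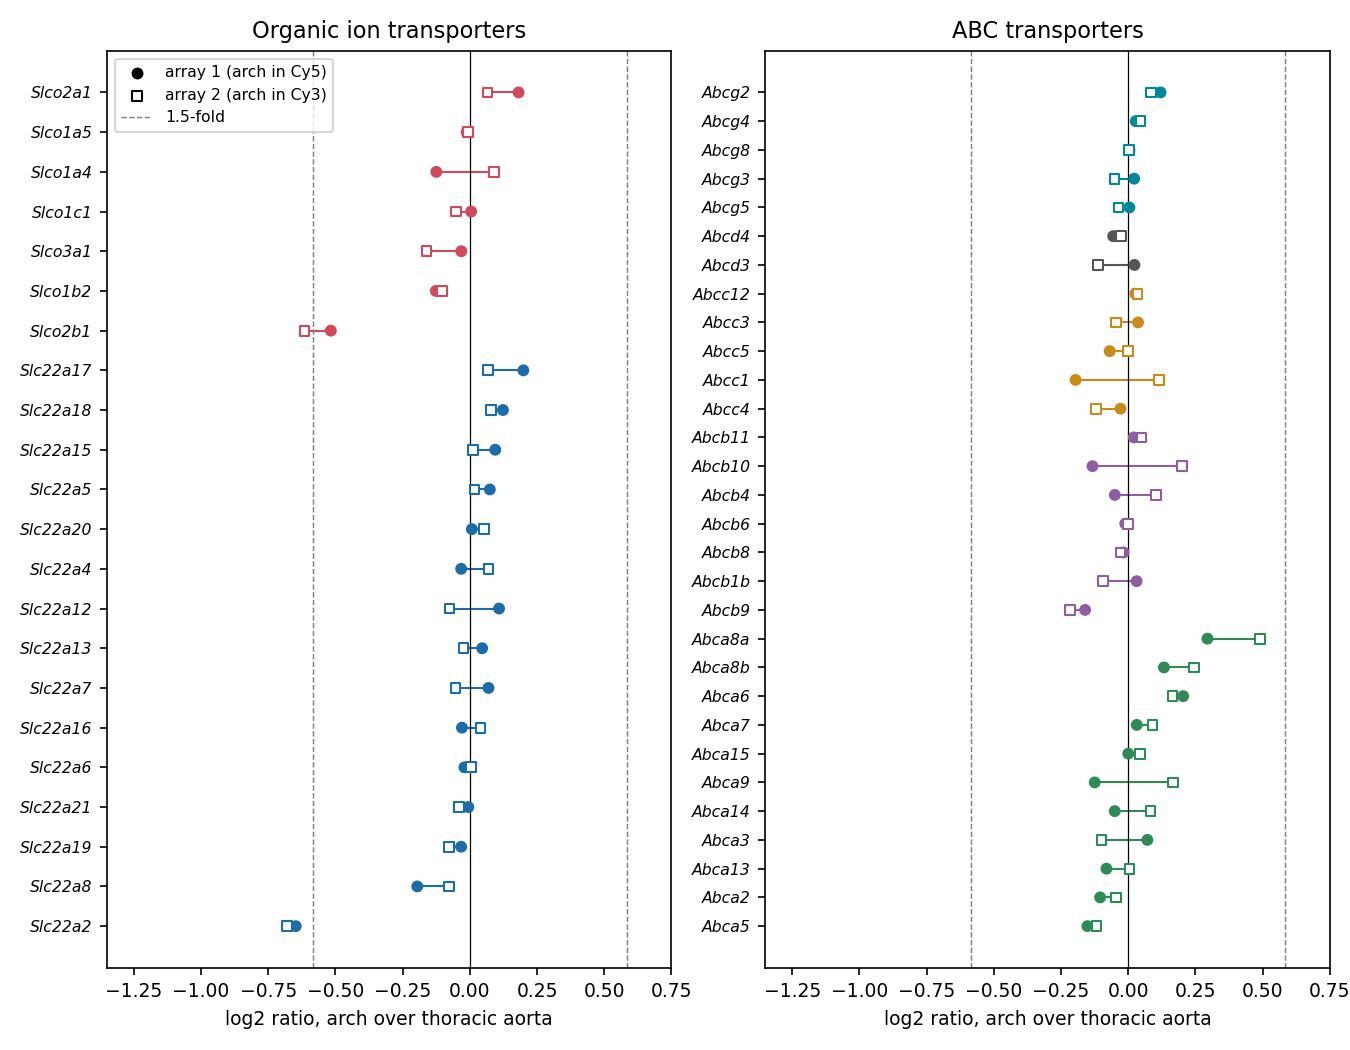
Log2 ratio of arch over thoracic aorta (x axis) of 52 measured transporters (y axis), on array 1 (filled circles) and array 2 (open squares), with dashed lines at 1.5-fold and colours for the subfamilies. Slc22a2 lies beyond the dashed line on both arrays, Slco2b1 on array 2 only, and the ABC transporters stay within the lines.

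Signals of individual pools are given as spot signal minus local background, in intensity units, with arch and thoracic aorta compared in the same dye across the arrays. Negative control spots kept a median of 10.3 and 9.90 units in Cy5 and of 27.1 and 25.9 units in Cy3 on arrays 1 and 2. Array 2 was brighter in Cy5: over the 10009 genes with a mean signal above 100, the median ratio of thoracic to arch signal was 1.20 in Cy5 and 1.02 in Cy3. The normalised log2 ratios allow for that difference and the signals do not. The mean signal of the members ran from 27.7 (Abcc12) to 3372 (Slc22a12), with a median of 69.9, so many of them lie not far above the controls, where the correction for background shrinks ratios.

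Slc22a2, the organic cation carrier of the kidney tubule, takes up creatinine, choline and monoamines. Its signal was 101 (arch) and 211 (thoracic aorta) in Cy5, and 110 and 202 in Cy3. Both thoracic values lay above both arch values. The ratio was −0.66 ± 0.02 (−0.65 and −0.68 on the arrays), place 43 from the bottom of all genes, and the scanner software gave −0.95. The gene had a single probe, so no second probe bears on the value.

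**Figure D2:**
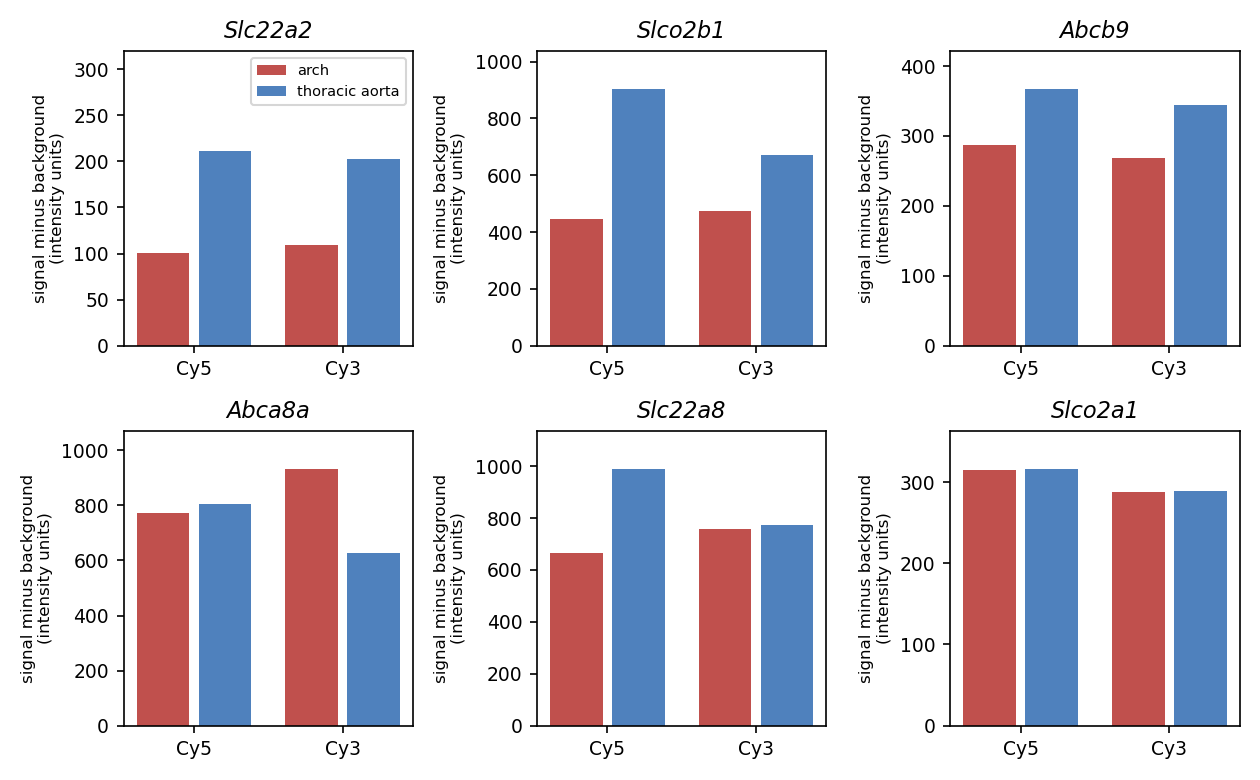
Spot signal minus local background (intensity units, y axis) in Cy5 and Cy3 for the arch (red) and the thoracic aorta (blue), 1 spot value per bar, for 6 transporters on separate scales. Thoracic bars are taller in both dyes for Slc22a2, Slco2b1 and Abcb9, while Slco2a1 is level in both.

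Slc22a3, the related extraneuronal monoamine carrier, was not well above background in either region on either array. The RefSeq promoter table of build GRCm38.p6 gave a window for Slc22a2, and for Abca8a and Abca8b, the members furthest to the arch side in their subfamily. These are the 250 bases before the transcription start, shown to let the regulatory sequence of these members be read. Capitals mark any match on either strand to the motif TATAAA of the TATA box or the motif CCAAT of the CCAAT box. They also mark the motif GGGCGG of the GC box and the motif TGANTCA of AP-1. The motif AGGTCA bound by nuclear receptors and the motif TAATTA bound by homeodomain factors are marked too:
Slc22a2 (GRCm38.p6, chr17:12583939-12584188, plus strand): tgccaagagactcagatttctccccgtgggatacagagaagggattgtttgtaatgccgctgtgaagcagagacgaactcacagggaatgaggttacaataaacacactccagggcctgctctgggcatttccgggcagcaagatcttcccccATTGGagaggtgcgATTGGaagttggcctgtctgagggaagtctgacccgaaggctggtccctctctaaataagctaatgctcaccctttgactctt
Abca8a (GRCm38.p6, chr11:110095938-110096187, minus strand): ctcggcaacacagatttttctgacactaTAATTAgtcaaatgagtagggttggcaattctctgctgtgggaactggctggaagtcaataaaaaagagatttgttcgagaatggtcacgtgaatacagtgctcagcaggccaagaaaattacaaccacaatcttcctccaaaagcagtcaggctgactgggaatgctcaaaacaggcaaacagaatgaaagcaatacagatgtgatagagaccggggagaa
Abca8b (GRCm38.p6, chr11:109995846-109996095, minus strand): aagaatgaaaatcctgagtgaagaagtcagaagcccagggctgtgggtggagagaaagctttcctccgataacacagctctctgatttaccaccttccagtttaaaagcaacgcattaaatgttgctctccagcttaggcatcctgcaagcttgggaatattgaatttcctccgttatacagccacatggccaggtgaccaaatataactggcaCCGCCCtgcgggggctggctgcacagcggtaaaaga

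The Slc22a2 window held CCAAT 2 times, on the reverse strand, 97 and 83 bases before the start, a motif found in 33.8% of 32851 promoter windows of this length. Abca8a held TAATTA, present in 4.84% of windows, and Abca8b held GGGCGG, present in 32.7%, each 1 time. The letters of the TATA box (in 12.4% of windows), AP-1 (6.75%) and nuclear receptor (14%) motifs were not in these 3 windows. A match is a description of the sequence and not a binding site.

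**Figure D3:**
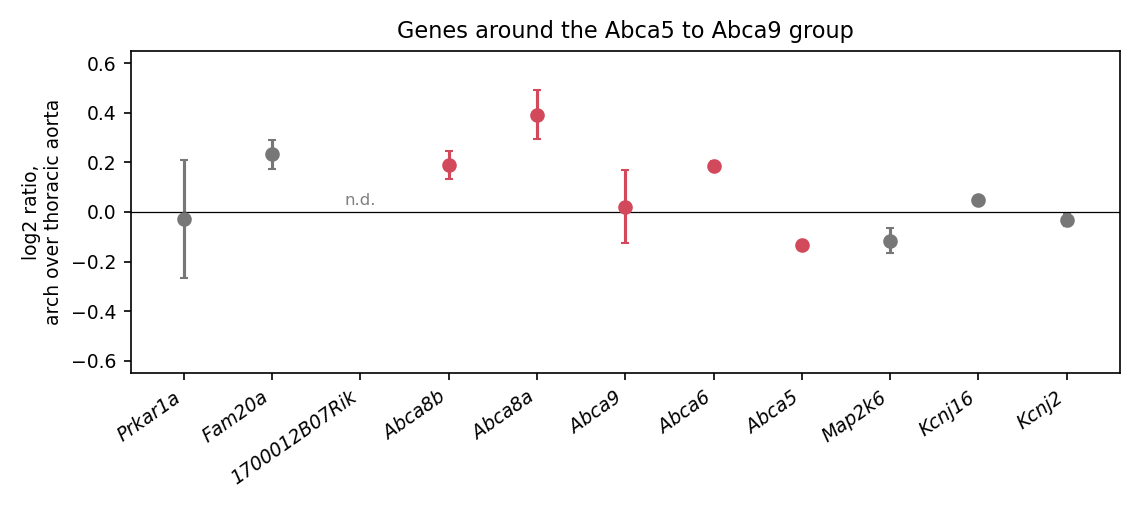
Log2 ratio of arch over thoracic aorta (y axis; bars show the distance of each array from the mean) for the Abca5 to Abca9 group and its neighbours in chromosomal order (x axis), transporters in red and other genes in grey; n.d. marks a gene not well above background. Abca8b, Abca8a and Abca6 lie above 0, and Abca5 below it.

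Markers of liver and kidney were read beside these carriers. Of 4 liver markers 3 were measured, and Alb, albumin, was lower in the arch at −0.95 ± 0.01 and called. Apoa1, an apolipoprotein, measured −0.14 ± 0.01, the enzyme Cyp2e1 0.43 ± 0.07, and Ttr did not pass the detection rule. The summed signal of the measured liver markers, mostly that of Alb, was 809 to 887 (arch) and 1282 to 1549 (thoracic aorta). No measured marker was at 0. Of 4 kidney tubule markers 3 were measured and 0 called, with a median of −0.02. Their sums, mostly the signal of Aqp2, were 813 to 939 (arch) and 961 to 1120 (thoracic aorta). The marker Aqp2 measured −0.11 ± 0.08 (−0.27 with median centring), and Umod, the tubule's own abundant protein, 0.02 ± 0.04. The part of liver or kidney RNA in the ratios of Slc22a2 and of the hepatocyte carrier Slco1b2 was not tested.

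The related carnitine and cation carriers were level. Slc22a5 (OCTN2), the high-affinity carnitine carrier, read 78.6 and 78.8 in arch and thoracic aorta in Cy5 and 84.5 and 88.4 in Cy3, with a ratio of 0.05 ± 0.03. Slc22a4 (OCTN1), the ergothioneine carrier, measured 0.02 ± 0.05, and Slc22a21, a further carnitine carrier of the mouse, −0.02 ± 0.02. The second probe of Slc22a5 gave −0.04. Slc22a21 read 45.5 and 95.7 in Cy5 and 93.6 and 62.5 in Cy3, so both of its values were higher on array 2. These 3 genes are also next to each other in the gene table. They are named for their function, with their values known. Of 9 genes that make or use carnitine, 0 were called and 8 lay above 0 (5 with median centring), with a median of 0.06; Acadl, a fatty acid dehydrogenase, measured 0.34 ± 0.05.

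Among organic anion carriers, Slc22a8 (OAT3), which takes up drugs and conjugated metabolites in the kidney, was bright, with 666 and 988 in Cy5 and 760 and 772 in Cy3 for arch and thoracic aorta. The pools differed in Cy5 and hardly in Cy3, and the ratio was −0.14 ± 0.06 (−0.30 with median centring). Slc22a12 (URAT1), the urate carrier of the kidney tubule, had the highest spot signal of the members, at 3223 and 4323 in Cy5 and 3140 and 2800 in Cy3. Its order between the regions thus turned with the dye, and the ratio was 0.02 ± 0.09 (−0.16 with median centring). Whether its single probe reads that transcript alone was not tested. Slc22a17, a receptor for lipocalin 2, measured 0.13 ± 0.07 (0.0089 with median centring). Slc22a18, an imprinted orphan carrier, measured 0.10 ± 0.02 (0.05 with median centring, 0.21 with the scanner software's ratios). Slc22a20, an olfactory organic anion carrier, was well above background in the arch on both arrays and in the thoracic aorta on 1, at 0.03 ± 0.02. Over the 16 measured Slc22a genes 2 were called, 10 lay above 0 (5 with median centring) and the median was 0.01, while the mean of −0.10 has the opposite sign.

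Of the 7 measured Slco genes 0 were called and 6 lay below 0 (all 7 with median centring), with a median of −0.02. Slco2b1 (OATP2B1), a carrier of steroid sulfates and statins, came nearest to a call. Its signal was 446 (arch) and 903 (thoracic aorta) in Cy5, and 474 and 670 in Cy3. Thoracic values lay above arch values in both dyes, and the ratio was −0.57 ± 0.05 (−0.52 and −0.62), so it passed 1.5-fold on array 2 and missed it on array 1. With median centring in place of loess it was called, at −0.73 ± 0.10.

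Macrophage markers ran the same way as Slco2b1. All 5 were measured and below 0, with a median of −0.09 and 0 called, from −0.29 ± 0.13 (Lyz2, lysozyme) to −0.02 ± 0.02 (Csf1r, the receptor for colony-stimulating factor 1). Their summed signal, mostly that of Lyz2, was 16851 to 22621 (arch) and 22213 to 31022 (thoracic aorta), and none was at 0. Their part in the Slco2b1 value was not tested.

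Slco2a1, the prostaglandin carrier that clears PGE2, had level signals before normalisation, 315 and 316 in Cy5 and 288 and 289 in Cy3 for arch and thoracic aorta. After it, the ratio was 0.12 ± 0.06 (0.23 at its other probe, −0.02 with median centring). Its sign thus depends on the centring, and the median over all genes with median centring was −0.04. Slco3a1, which also carries prostaglandins, measured −0.10 ± 0.06 (−0.25 with median centring). Slco1b2, the bile acid carrier of the hepatocyte, had a low signal of 42.0 and 62.6 in Cy5 and 63.6 and 67.1 in Cy3, with a ratio of −0.11 ± 0.01 and a scanner ratio of −0.29. The other 8 Slco genes of the array, such as Slco1a1, Slco4a1 and Slco4c1, did not pass the detection rule.

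Of 11 measured Abca genes, 7 lay above 0 (5 with median centring) and 0 were called. Abca8a, one of a group of related genes thought to move lipids, was the member highest in the arch. It read 772 (arch) and 804 (thoracic aorta) in Cy5 and 932 and 626 in Cy3, so the arch was the brighter in Cy3 alone before normalisation. After it, the ratio was 0.39 ± 0.10 (0.29 and 0.49), place 168 from the top of all genes, and 0.22 with median centring.

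Abca8a lies in a run of 5 Abca genes in the gene table, and its neighbours went both ways. Abca8b measured 0.19 ± 0.06, with 0.02 at its dimmer probe, and Abca6 0.18 ± 0.02, with 0.16 at its other probe. The scanner software's ratios of these dim genes were larger, 0.43 and 0.39. Abca9 measured 0.02 ± 0.15, with opposite signs on the arrays, and Abca5, found in lysosomes, −0.13 ± 0.02 (−0.26 with the scanner software's ratios), with 0.01 at the highest of its 4 probes. Fam20a, a secretory pathway pseudokinase on the Abca8b side, measured 0.23 ± 0.06.

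Fibroblast markers lay above 0 beside the Abca8 group. All 5 were measured and above 0 (2 with median centring) and 0 called, from 0.04 (Dpt and Cd34) to 0.55 ± 0.06 (Lum, the collagen-binding proteoglycan lumican) and 0.55 ± 0.15 (Pdgfra, a growth factor receptor), with a median of 0.06. Summed signals were 27583 to 29932 (arch) and 22714 to 29407 (thoracic aorta), with none at 0. White fat markers, 2 of 4 called higher, had a median of 0.51, and brown fat markers, 4 of 5 called higher, one of 0.78. What these cells contributed to the Abca values was not tested.

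The remaining Abca genes, Abca2, Abca3, Abca7, Abca9 and Abca13 to Abca15, lay between −0.07 and 0.06. Abca7 (0.06 ± 0.03), which moves phospholipids, and Abca3 (−0.01 ± 0.09), which loads lung surfactant, had mean signals of 186 and 197. Abca13 was well above background in the thoracic aorta on both arrays and in the arch on 1, at −0.04 ± 0.04.

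Multidrug and bile acid exporters of the Abcb family had 0 calls. Abcb1b, which together with Abcb1a makes the drug pump P-glycoprotein of the mouse, measured −0.03 ± 0.06, and Abcb1a did not pass the detection rule; these are near-identical genes, and whether the probes tell them apart was not tested. Abcb4, which exports phosphatidylcholine into bile, measured 0.03 ± 0.08 and Abcb11, the bile salt export pump, 0.03 ± 0.01 (−0.09 with median centring). The lowest of the 8 was Abcb9, a peptide carrier of lysosomes, which read 288 and 367 in Cy5 and 268 and 344 in Cy3 for arch and thoracic aorta. Its thoracic values were higher in both dyes, by 1.28 times in each, with a ratio of −0.19 ± 0.03 (−0.22 with the scanner software's ratios, −0.33 with median centring).

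The mitochondrial members Abcb6, Abcb8 and Abcb10 lay between −0.02 and 0.03. Of 11 genes of heme and iron-sulfur cluster synthesis 0 were called, with 5 above 0 (1 with median centring) and a median of −0.02. The arrays differed most for Abcb10, at 0.03 ± 0.17, with opposite signs.

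Members of the Abcc family, which export conjugates with glutathione and other anions, ranged from −0.07 ± 0.05 (Abcc4, which also exports cyclic nucleotides, −0.18 with the scanner software's ratios) to 0.03 ± 0.00 (Abcc12, an orphan member, well above background in the arch on 1 array). Abcc1 (MRP1), an exporter of leukotriene C4, read 271 and 327 in Cy5 and 309 and 335 in Cy3. At its brightest probe the arrays disagreed in sign, at −0.20 and 0.12. The mean of −0.04 ± 0.16 (−0.18 with median centring) is thus within the error between arrays. The dimmer probes of Abcc1 gave −0.11 ± 0.11, with opposite signs on the arrays, and −0.10 ± 0.03, below 0 on both. Abcc5, a cyclic nucleotide exporter, measured −0.04 ± 0.03, with 0.11 at another probe. Abcc2, Abcc6 and Abcc10 did not pass the detection rule.

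Abcd3, also known as PMP70, a peroxisomal carrier that takes up fatty acids for oxidation, read 1141 and 1409 in Cy5 and 1043 and 1101 in Cy3 for arch and thoracic aorta. Its ratio was −0.04 ± 0.07 (−0.21 with median centring). Of 10 peroxisomal partners 0 were called and 8 lay above 0 (1 with median centring), with a median of 0.02.

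Abcg2, a pump of drugs and urate, read 125 and 166 in Cy5 and 164 and 127 in Cy3. Both of its values were higher on array 2, so the brighter region differed between the dyes before normalisation. After it, the ratio was 0.10 ± 0.02 (0.12 and 0.09), 0.04 at its other probe and 0.01 with median centring. The sterol exporters Abcg5 and Abcg8, which act as a pair, measured −0.02 ± 0.02 and 0.00 ± 0.00. Abcg3 was at −0.01 ± 0.04 and not well above background in the arch on 1 array.

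**Figure D4:**
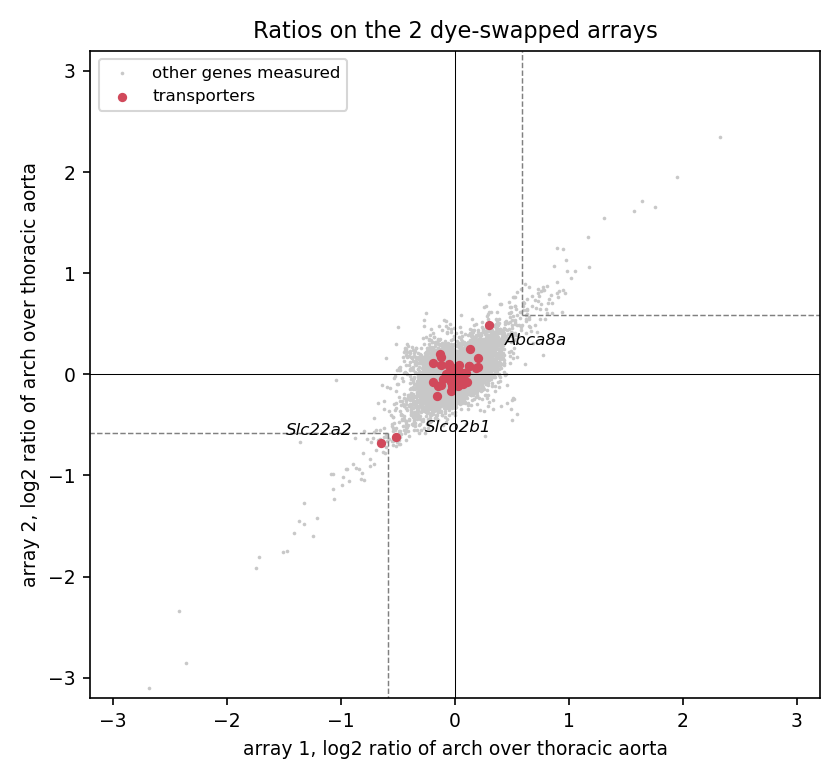
Log2 ratio of arch over thoracic aorta on array 1 (x axis) against array 2 (y axis) for 21366 genes, transporters in red and others in grey, with dashed corners at 1.5-fold on both arrays. Of the transporters drawn, Slc22a2 lies inside a corner, Slco2b1 just outside it, and most sit in the central cloud.

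Where a member had several kept probes (20 genes), the probes spanned at most 0.17, although 10 genes had probes on both sides of 0. At the edge of detection, the dimmest kept members were Abcc12, Slc22a20 and Abcg3, with mean signals of 27.7, 28.1 and 29.2, and the brightest of those left out were Abca17 (29.4) and Slco4a1 (29.3). For members near that edge, a difference between the regions was not measurable. Further transporters of these families sat on the array under older clone names and are no members by the rule. The MATE carrier Slc47a1, which extrudes cations, measured 0.00 ± 0.04 and 0.04 ± 0.03 at its probes, and Slc22a23, an orphan carrier, 0.11 ± 0.01 at a probe that read 4728 and 5329 in Cy5 and 4391 and 4089 in Cy3.

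Other genes of the same pathways showed 0 calls. Of 7 genes of monoamine uptake and breakdown, 4 lay above 0 with a median of 0.0032. Maob, a monoamine oxidase, measured 0.23 ± 0.06 (0.08 with median centring). Of 11 measured carriers of other families 9 lay above 0 (4 with median centring), with a median of 0.03. Of 15 regulators of transporter genes 12 lay above 0 (10 with median centring), with a median of 0.04. The highest was the xenobiotic receptor Nr1i3 (CAR) at 0.38 ± 0.05 (0.20 with median centring). Of 10 measured ABC proteins outside the rule 5 lay above 0 (4 with median centring), with a median of 0.01. The left-out Abca1 measured 0.12 ± 0.06 (−0.0048 with median centring) and Abcc9 0.13 ± 0.05 (0.0030 with median centring).

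The tissue label was checked against markers. Smooth muscle markers were well above background in both regions, 5 of 5, and 0 were called. Acta2 and Tagln were saturated in Cy5, so their ratios are not given. Myh11, the smooth muscle myosin, measured −0.22 ± 0.03, Cnn1, calponin, −0.10 ± 0.12 and Smtn, smoothelin, 0.06 ± 0.13. Endothelial markers, 5 of 5 measured and 0 called, were dim, with sums of 262 to 355 (arch) and 297 to 299 (thoracic aorta). Pecam1 read 21.0 and 30.3 in Cy5. The median was −0.02, with 3 markers below 0 and 2 above (3 above with median centring). Those above 0 were Vwf at 0.26 ± 0.02 and Kdr at 0.18 ± 0.05. The part of the endothelium in the Slco2a1 and Abcg2 values was not tested. Mesothelial markers had a median of 0.43 (5 of 5 above 0, 0 called), barrier epithelium 0.06, and nerve 0.03. Of 4 measured cardiac muscle markers 3 were called higher in the arch (median 1.23), and Myh6 did not pass it.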

How the data were processed

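The authors' scanner files come from Agilent Feature Extraction, version 9.1.1.1 in the submitters' processing notes. They hold the mean signal and local background per spot as an intensity in each dye and a log10 ratio of Cy5 over Cy3, as deposited, besides flags for well above background, saturation and outliers, per the file headers. The deposited series table matched those log10 ratios with the arch as numerator in 99.9% of spots on each array (tolerance 1e-06); both of its medians are 0, and scale and direction, which it does not state, come from this match and the dyes in the labels. RNA of 6 mice per region, of integrity 7.5 to 7.7, was pooled and 1 µg labelled, per the labels' protocols. No genome build is given in the sources used here.

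Intensities were corrected by normexp (offset 50), loess-normalised within arrays with control spots at weight 0 (limma 3.58.1, R 4.3.3), array 2 was turned, control and outlier spots (20 and 4 gene spots) were left out, and a gene took its brightest kept probe. Of 41174 probes 30521 were kept. Outside the members, symbols came from a RefSeq table (23134 spots by accession, 10302 by name, 8098 unmatched). No member was saturated. The same call rule applied to the dye called 0 genes, and from 0 to 15 under the alternatives. Steps were tested on simulated data. Alternatives were an offset of 0, the scanner or series ratios, median centring, probe means, other filters, each array alone, and 2-fold or 1.3-fold rules.

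Members and lists were chosen with earlier results of these data known. Named members are those called, the 15 largest and 10 brightest, the extremes of each family, those with disagreeing probes and those measured in 1 region; others were named for their function after their values were seen. Some members are counted in the totals but not reported or drawn here.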

Additional observations from a re-analysis of the deposited data

How the results depend on the processing

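The same 2 members, Slc22a2 among them, were called lower in the arch under every alternative run but the 2-fold rule, where 0 members were called, and no member was called higher under any of them. Slco2b1 joined them with median centring (−0.73), on array 2 alone (−0.62) and with a 1.3-fold rule. The median of the members, −0.0082, was −0.016 with an offset of 0, −0.029 with the scanner ratios or the series table, −0.024 with median centring and −0.0012 on array 2 alone. Over all genes, against 55 higher and 49 lower, an offset of 0 gave 116 and 103, the scanner ratios, like the deposited series values, gave 152 and 128, median centring 28 and 75 (27.2% of calls higher, in place of 52.9%), the 2-fold rule 9 and 15, and the 1.3-fold rule 134 and 112; for settings other than the folds, the cause was not tested. Single members kept their side of the threshold except Slco2b1. Over all settings, at least 57 values of the named members not called moved by more than their ± value. The near-identical scanner and series ratios were each counted. The called Slc22a2 is outside that count, and its value moved by more than its ± value too. It was −0.92 with an offset of 0, −0.95 with the scanner ratios and −0.76 with median centring, against −0.66 ± 0.02. Genes that followed the dye past the threshold numbered 0, but 2 with an offset of 0, 15 with the scanner or series ratios, and 3 each with median centring and the 1.3-fold rule. In Cy5 the arch signal of 16 of 55 members lay under 4 times the negative control median, which limits those members.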
